A study of Mus musculus with 6 samples.

Results

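The 45 genes described here act in mitosis, on the spindle and in the separation of chromosomes, and their mRNA was measured in the spleens of mice fed garlic or a control diet. They were listed by name for their known functions, and although no measured value enters that rule, earlier results of these data were known when the list was made. All 45 were found on the array and were bright enough to be tested, out of 12262 genes tested in all. Each gene was represented by 1 probe set, which is a cluster of short oligonucleotides that bind its mRNA, and the brightest on average was taken where there were several. The animals were male C57BL/6J mice that entered the study at 8 weeks of age and stayed on their diet for 15 weeks. Control mice ate a base diet supplemented with 4% cellulose, and garlic-fed mice ate the same base diet with 4% lyophilized raw garlic powder instead, so that the groups differed in cellulose as well as in garlic. The labels name no altered gene in either group. Whole spleens of 3 mice of each group were hybridized, 1 Affymetrix array for each mouse.

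The values are MAS5 signals, the brightness of a probe set on a linear scale after the authors' processing, and the number of arrays limits their precision. The signals of the 45 genes ran from 198.9 to 12616.6, and 0 of them were below the floor of 23.5 that was set under dim signals. Within its group, each array correlated with the others at a median r over the probe sets tested of 0.976 to 0.978 for control mice, and of 0.966 to 0.970 for garlic-fed mice. The label of the tissue was checked on the B-cell marker Ms4a1, whose signal was between 12414.5 and 14111.9 on all 6 arrays, and on Cd79a, at 8894 to 11193.2. Enzymes of the exocrine pancreas, which lies against the spleen, were also present in unequal amounts. The mean log2 signal of 9 of these pancreatic genes was 13.6, 10.4 and 12.4 in control mice 1, 2 and 3 and 5.83, 11.5 and 5.93 in garlic-fed mice 1, 2 and 3.

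In mitosis a cell condenses its duplicated chromosomes, attaches them through kinetochores to the microtubules of the spindle, and pulls the sister chromatids apart once the spindle checkpoint is satisfied. Most of the genes involved are transcribed late in the cell cycle, and many of their promoters carry a cell cycle homology region, bound by the MuvB core of the DREAM complex, together with CCAAT boxes bound by NF-Y. In the mouse spleen dividing cells include red cell precursors of the red pulp, granulocyte precursors and the B cells of germinal centers. In RNA of a whole spleen, a larger share of dividing cells and more of an mRNA in each cell cannot be told apart.

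Promoter sequences of the 45 genes were examined first, because shared promoter elements are what these genes are known for. RefSeq windows on the GRCm38.p6 build, each of 300 bases from 250 before to 50 after a start site, were matched for 38 of the 45 genes, in 42 windows. No window was matched for Spc24, Incenp, Smc4, Aurkb, Kif20a, Cep76 or Tpx2. The cell cycle homology region, searched as TTTGAA on both strands, was found in 30 of the 38 genes (78.9%), against 20.2% of all 27025 genes with a window. Counted by window, it was present in 34 of 42 (81%), against 17.9% of all 32851 windows. The CCAAT box, searched as CCAAT on both strands, was found in 28 of the 38 genes (73.7%) and in 41.1% of all genes. By window these shares were 73.8% and 37.4%. Matches to the different strings may share bases where they adjoin, and both were present in 25 of the 38 genes (65.8%) against 7.97% of all genes. A match is a description of the letters in a window and not a site shown to be bound.

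The following 5 promoters are shown because they belong to genes described with full values below, hold both elements and had the largest log2 fold changes among such genes. Capitals mark TTTGAA and CCAAT or their reverse complements TTCAAA and ATTGG, and each sequence reads 5′ to 3′ on the gene's strand. They come from chr2:172370521-172370820 on the minus strand for Aurka, chr7:135716330-135716629 on the minus strand for Mki67, chr2:164769679-164769978 on the plus strand for Ube2c, chr2:69206164-69206463 on the minus strand for Spc25 and chr5:45669675-45669974 on the plus strand for Ncapg.
Aurka: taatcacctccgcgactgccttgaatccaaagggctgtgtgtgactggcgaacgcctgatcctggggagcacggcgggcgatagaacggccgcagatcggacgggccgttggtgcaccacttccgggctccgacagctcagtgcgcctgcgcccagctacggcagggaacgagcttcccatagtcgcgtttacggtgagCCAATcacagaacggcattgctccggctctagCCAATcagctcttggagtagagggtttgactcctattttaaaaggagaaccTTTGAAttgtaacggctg
Mki67: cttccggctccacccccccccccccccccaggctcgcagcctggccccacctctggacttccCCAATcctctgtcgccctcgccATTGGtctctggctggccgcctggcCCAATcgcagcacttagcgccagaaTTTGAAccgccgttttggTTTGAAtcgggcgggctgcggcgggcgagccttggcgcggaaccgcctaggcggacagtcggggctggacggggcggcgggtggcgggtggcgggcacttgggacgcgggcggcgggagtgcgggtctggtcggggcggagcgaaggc
Ube2c: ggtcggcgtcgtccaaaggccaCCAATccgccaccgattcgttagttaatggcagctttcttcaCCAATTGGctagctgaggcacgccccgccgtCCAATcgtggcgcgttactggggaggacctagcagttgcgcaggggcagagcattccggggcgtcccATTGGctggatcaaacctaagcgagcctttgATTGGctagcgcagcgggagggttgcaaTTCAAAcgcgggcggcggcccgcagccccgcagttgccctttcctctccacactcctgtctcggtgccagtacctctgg
Spc25: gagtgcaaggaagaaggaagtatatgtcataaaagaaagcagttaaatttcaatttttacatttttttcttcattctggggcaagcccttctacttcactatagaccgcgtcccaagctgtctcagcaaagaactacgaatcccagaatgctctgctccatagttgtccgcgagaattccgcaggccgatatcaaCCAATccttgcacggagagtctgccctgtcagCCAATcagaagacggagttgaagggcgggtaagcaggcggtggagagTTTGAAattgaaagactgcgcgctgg
Ncapg: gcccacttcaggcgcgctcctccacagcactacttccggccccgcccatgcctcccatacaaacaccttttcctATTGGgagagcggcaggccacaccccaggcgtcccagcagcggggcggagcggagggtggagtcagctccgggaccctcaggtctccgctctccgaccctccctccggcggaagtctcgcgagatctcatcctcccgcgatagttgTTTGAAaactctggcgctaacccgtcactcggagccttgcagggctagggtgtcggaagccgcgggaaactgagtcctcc

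Aurka, Spc25 and Ncapg each held 1 match to the cell cycle homology region, and Mki67 held 2. In Aurka the match began at base 33 after the start site and its 2 CCAAT boxes at -51 and -19. Spc25 had a like arrangement, with the homology region at 25 and CCAAT boxes at -55 and -23. In Ncapg the homology region lay at -30 and a single CCAAT box, on the other strand, at -176. Ube2c carried 6 CCAAT matches, of which those at -186 and -183 overlap as the palindromic CCAATTGG, and its homology region lay at -29 on the other strand. In Mki67 both homology regions lay farther upstream, at -116 and -98, between the 3 CCAAT boxes and the start site.

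Over the 42 windows of the 38 genes that had one, matches to the cell cycle homology region gathered at the start site. Of 41 matches, 31 (75.6%) began within 50 bases of it, and their median position was -15. In all promoters 25.3% of matches did so and the median position was -124. CCAAT boxes had a median position of -71 in these genes and -92 in all promoters. Overlapping windows of 1 gene share sequence, so the matches are not all separate.

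**Figure D1:**
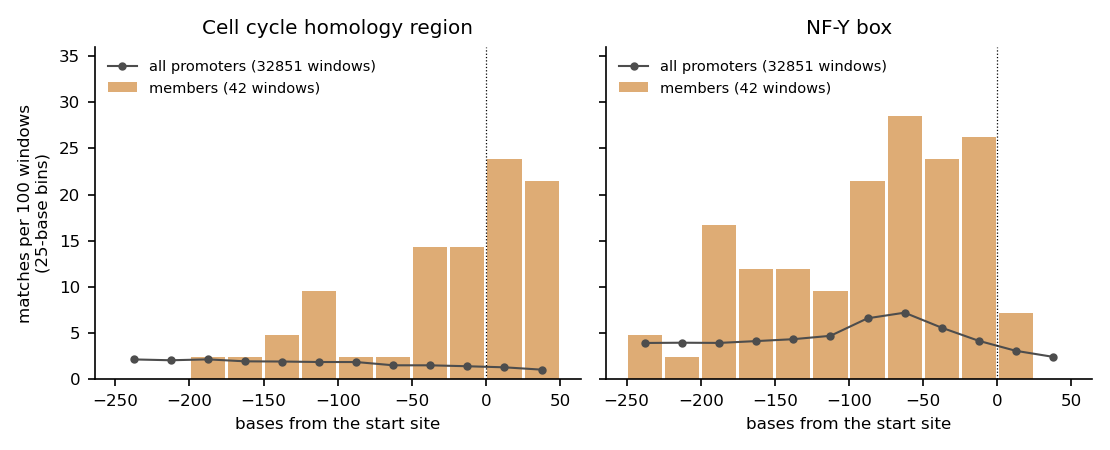
Matches per 100 promoter windows in 25-base bins, plotted against the distance in bases from the start site, for the 42 windows of the mitosis genes (bars) and all 32851 windows (line). The left panel shows the cell cycle homology region, for which 75.6% of the matches in mitosis genes lie within 50 bases of the start, and the right panel shows the NF-Y box, the CCAAT motif.

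The comparison of garlic-fed with control mice asked how the mRNA of these genes differed between the diets. Of the 45 genes, 43 (95.6%) had a positive log2 fold change, against 44.2% of all genes tested. Their median log2 fold change was 0.38, a fold of 1.31, and the median of all genes was -0.03. With limma and Benjamini-Hochberg adjustment over all probe sets tested, 1 of the 45, Mki67, was higher at an adjusted p under 0.05, where 0.343% of all genes were, and 0 were lower. At an unadjusted p under 0.05, 25 were higher (background 6.89% of all genes) and 1 was lower (background 6.24%). All 3 garlic-fed signals lay above all 3 control signals in 24 genes, against 9.13% of all genes, and below them in 1 gene, Cep55, against 10.7% of all genes. The groups overlapped in the other 20. A gene that missed the threshold is not thereby shown to be equal in the groups. By the criterion of the study, a fold above 1.8 with an unadjusted p under 0.05, 1 gene was higher, Cep76, where 1.08% of all genes were. The genes were read in the same 6 spleens, so they are not 45 separate observations.

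**Figure D2:**
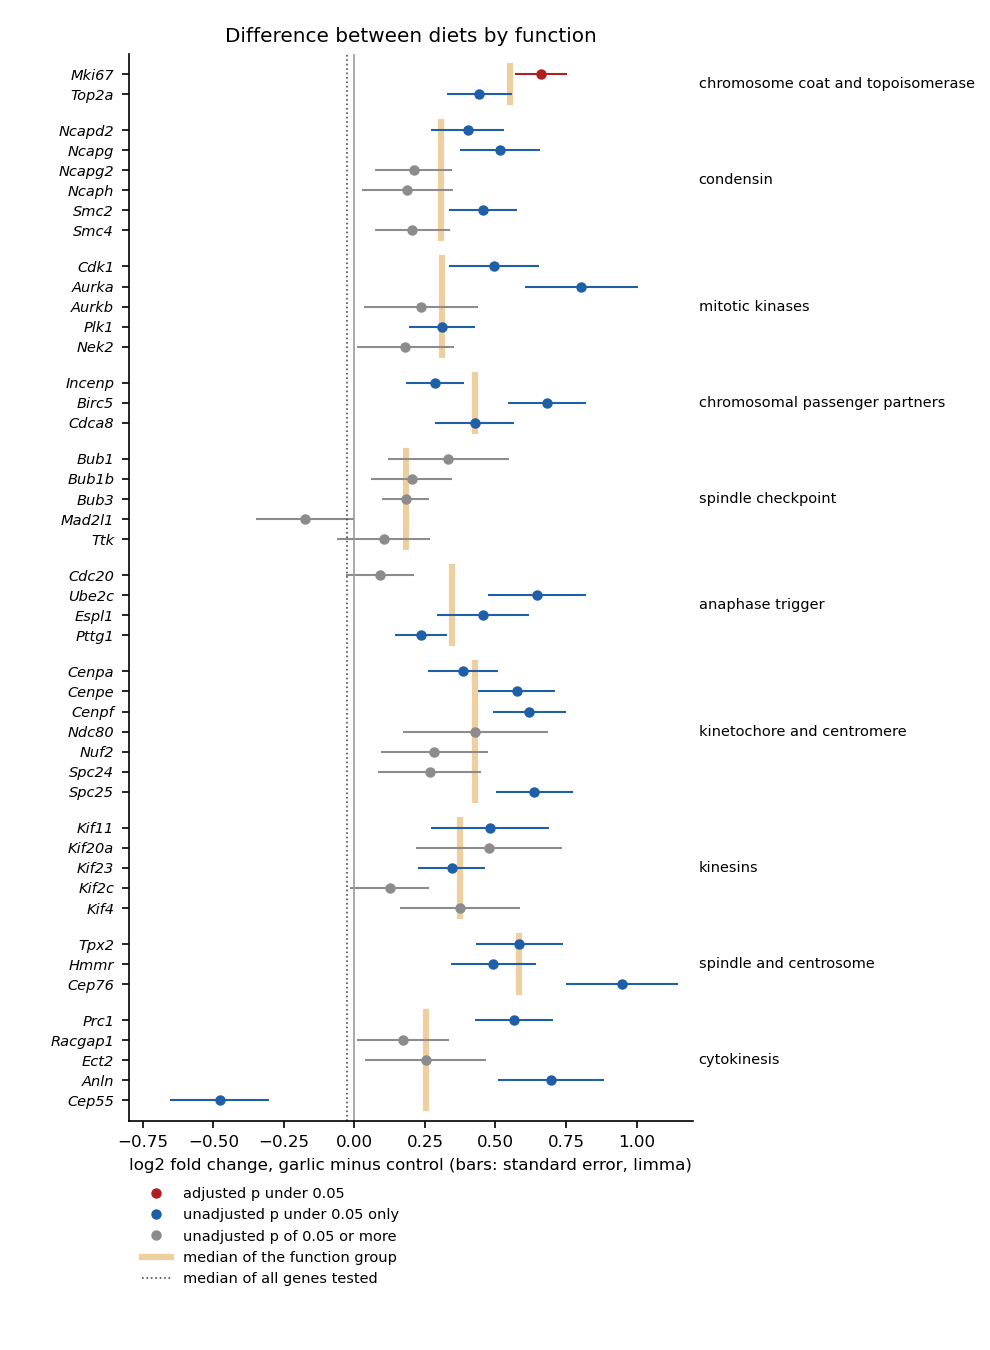
The log2 fold change, garlic-fed minus control, of each of the 45 genes, with bars for the standard error from limma, grouped by function. The points of 43 genes lie right of 0, and Cep55 and Mad2l1 lie left of it.

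The difference was graded among the garlic-fed mice. Relative to the mean of the control mice, garlic-fed mice 1, 2 and 3 had median log2 signals of 0.16, 0.34 and 0.67 over the 45 genes, while control mice 1, 2 and 3 had -0.05, -0.01 and 0.06. Garlic-fed mouse 3 had the highest of the garlic-fed signals in 41 of the 45 genes (91.1%), against 35% of all genes. The lowest was that of garlic-fed mouse 1 in 37 of the 45, and the share of all genes was not counted for this. Signals above all 3 control signals were found in 27 genes in mouse 1, 32 in mouse 2 and 43 in mouse 3, where 28.2%, 28.2% and 26.7% of all genes were. The median SD of the log2 signal was 0.119 among control mice and 0.276 among garlic-fed mice, and the garlic-fed SD was the larger in 44 of the 45 genes. Over all genes these medians were 0.137 and 0.169, and the garlic-fed SD was larger in 59%. Garlic-fed mice 1, 2 and 3 also differed in the ratio of the 3′ to the 5′ Gapdh signal, a sign of RNA quality, which was 0.978, 0.999 and 0.769, while it was 0.801 to 0.881 for control mice. Mouse 3, the highest in most of the 45 genes, thus had the lowest ratio of all arrays, and pancreatic signal differed among the mice as given above. Signal of fat tissue genes also differed among the garlic-fed mice, as given below, and was lowest in mouse 3. The part of RNA quality and of pancreatic or fat tissue in the order of the mice was not tested. Without mouse 3 the median log2 fold change of the 45 genes was 0.24, and without mouse 1 it was 0.50.

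**Figure D3:**
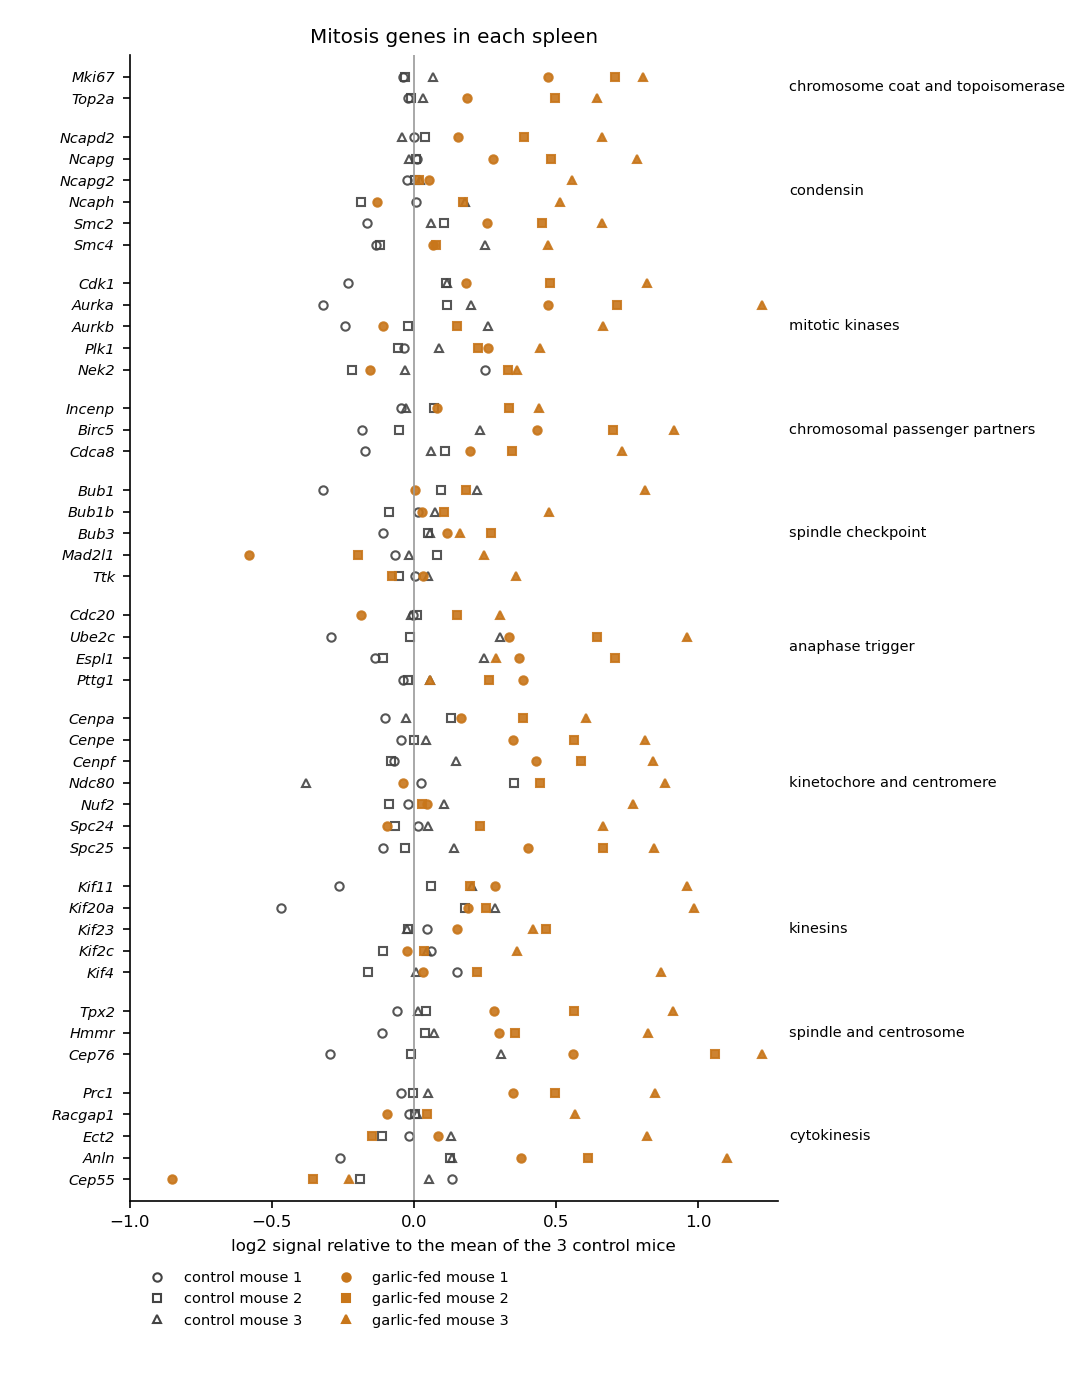
Log2 signal of each of the 45 genes in each of the 6 mice, relative to the mean of the control mice, grouped by function. Open symbols are control mice and filled symbols garlic-fed mice, and the triangle of garlic-fed mouse 3 is the rightmost filled symbol in 41 genes.

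Mki67 and Top2a encode proteins of the mitotic chromosome itself. Mki67 encodes Ki-67, which coats mitotic chromosomes and is widely used as a marker of cycling cells. Its signal was 7032.9, 7074.5 and 7573.7 among control mice, against 10017.1, 11802.6 and 12616.6 among garlic-fed mice. Every garlic-fed mouse was above every control mouse, and Mki67 rose by 0.66 on the log2 scale (SE 0.09, adjusted p = 0.0281, limma). The rise had the same direction without any 1 mouse, but the adjusted p was 0.161, 0.143, 0.0640 and 0.0711 without control mouse 1, 2 or 3 or garlic-fed mouse 2. It was also above the threshold with no filter on dim probe sets (0.298), with no trend of variance (0.273) and with the per-probe-set test of the methods on log2 (0.388) or linear signals (0.409). With pancreatic signal as a covariate it was 0.295, and without the array of most pancreatic signal in each group it was 0.261.

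Top2a encodes topoisomerase II alpha, which untangles sister DNA molecules. Its signal was 3124.8, 3153 and 3242.3 among control mice, against 3616.7, 4472.3 and 4959.4 among garlic-fed mice. The groups did not overlap, with a log2 fold change of 0.44 (SE 0.11, adjusted p = 0.170). A second tested probe set of Top2a gave 0.80.

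The condensin complexes wind chromatin into compact chromosomes. The 6 condensin genes had a median log2 fold change of 0.31, and 3 of them, Ncapd2, Ncapg and Smc2, had groups that did not overlap. The highest value was that of Ncapg, a subunit of condensin I, with 595.8, 594 and 583.5 among control mice, against 717.8, 826.9 and 1019.3 among garlic-fed mice. The control mice were within a narrow range and all garlic-fed mice were above it, with a log2 fold change of 0.52 (SE 0.14, adjusted p = 0.200). The lowest was that of Ncaph, the subunit that bridges the heads of the complex, with 1521.1, 1331 and 1715.8 among control mice, against 1386.1, 1708.4 and 2163.5 among garlic-fed mice. Here garlic-fed mouse 1 lay within the control range, and the log2 fold change was 0.19 (SE 0.16, adjusted p = 0.740). Log2 fold changes of the others were 0.40 for Ncapd2, also of condensin I, 0.21 for Ncapg2 of condensin II, and 0.46 and 0.20 for Smc2 and Smc4, the ATPases shared by both complexes. For Ncapd2 the other probe set gave 0.12.

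Protein kinases drive the entry into mitosis and its steps. The 5 kinases had a median log2 fold change of 0.31, and Cdk1, Aurka and Plk1 had groups that did not overlap. Cdk1, the kinase that starts mitosis, had signals of 1495.5, 1895.2 and 1903.1 among control mice, against 1994.1, 2446.6 and 3093.7 among garlic-fed mice. The lowest garlic-fed signal was just above the highest control signal, and the log2 fold change was 0.49 (SE 0.16, adjusted p = 0.276). Aurka encodes Aurora A, which matures centrosomes and builds the spindle. Its signal was 539.7, 730.7 and 775.2 among control mice, against 933.8, 1106.3 and 1575.7 among garlic-fed mice. The groups did not overlap, with a log2 fold change of 0.80 (SE 0.20, adjusted p = 0.158), the highest of the kinases. Nek2, which splits the centrosomes, was lowest, with 907.4, 655.6 and 746.1 among control mice, against 685.2, 960.6 and 980.8 among garlic-fed mice. Control mouse 1 was well above garlic-fed mouse 1, and the log2 fold change was 0.18 (SE 0.17, adjusted p = 0.771). Plk1, which acts at centrosomes and kinetochores, had a log2 fold change of 0.31, and Aurkb, the kinase of the chromosomal passenger complex, had 0.24 with overlapping groups.

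The chromosomal passenger complex corrects wrong attachments of chromosomes to the spindle, with Aurora B as its kinase. Its 3 other subunits had a median log2 fold change of 0.43, and in all 3 the groups did not overlap. Birc5, which encodes survivin, had signals of 2817, 3084.2 and 3755.8 among control mice, against 4310.6, 5188.6 and 6031.5 among garlic-fed mice. The groups were apart, with a log2 fold change of 0.68 (SE 0.14, adjusted p = 0.0960). Incenp, the scaffold, had 3725.9, 4041.2 and 3774.6 among control mice, against 4065.4, 4853.2 and 5223.9 among garlic-fed mice. Its lowest garlic-fed signal was barely above the highest control signal, and the log2 fold change was 0.29 (SE 0.10, adjusted p = 0.335). The 4 tested probe sets of Incenp ranged from 0.13 to 0.45. Cdca8, which encodes borealin, had a log2 fold change of 0.43.

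The spindle checkpoint holds the cell until every kinetochore is attached. Its 5 genes had a median log2 fold change of 0.18. At an unadjusted p under 0.05, 0 of 5 were higher (background 6.89% of all genes) and 0 were lower (background 6.24%). Bub1, a checkpoint kinase, had the highest value, with 519.2, 692 and 755.9 among control mice, against 649.5, 735 and 1138 among garlic-fed mice. Only garlic-fed mouse 3 was above the control range, and the log2 fold change was 0.33 (SE 0.21, adjusted p = 0.631). Mad2l1, the Mad2 protein that restrains Cdc20, had 2454.6, 2720.1 and 2535.5 among control mice, against 1719, 2242.1 and 3049.6 among garlic-fed mice. Garlic-fed mice 1 and 2 were below all control mice and mouse 3 was above them, and the log2 fold change was -0.18 (SE 0.17, adjusted p = 0.780). Bub3 was the checkpoint gene whose groups did not overlap, at 0.18, but its 5 probe sets ranged from -0.23 to 0.23. Bub1b, which encodes BubR1, had a log2 fold change of 0.20. Ttk, the Mps1 kinase, had 0.10, and its other probe set had -0.15. With averaged probe sets in place of the brightest, the median of the checkpoint genes was 0.01.

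Anaphase begins when Cdc20 activates the anaphase-promoting complex, which destroys securin and frees separase. The 4 genes of this step had a median log2 fold change of 0.35. Ube2c, the ubiquitin-conjugating enzyme of the complex, had 3856.2, 4669 and 5823.3 among control mice, against 5947, 7366.9 and 9182.2 among garlic-fed mice. The highest control signal came close to the lowest garlic-fed signal without reaching it, and the log2 fold change was 0.65 (SE 0.17, adjusted p = 0.186). Cdc20 itself had 3379.5, 3419.1 and 3370.4 among control mice, against 2977.2, 3769.4 and 4185.9 among garlic-fed mice. Control mice were nearly equal and garlic-fed mouse 1 was below them, and the log2 fold change was 0.09 (SE 0.12, adjusted p = 0.848). Espl1, which encodes separase, had a log2 fold change of 0.46 with its highest signal in garlic-fed mouse 2. Pttg1, which encodes securin, had 0.24 and was the gene with its highest signal in garlic-fed mouse 1. Its 3 probe sets ranged from -0.02 to 0.24.

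Kinetochores assemble on centromeric chromatin and hold the microtubules. The 7 genes had a median log2 fold change of 0.43, and Cenpa, Cenpe, Cenpf and Spc25 had groups that did not overlap. Ndc80, Nuf2, Spc24 and Spc25 encode the 4 subunits of the Ndc80 complex, which binds the microtubule. Of these Spc25 was highest, with 691, 729.5 and 822.5 among control mice, against 985.6, 1182.5 and 1339.5 among garlic-fed mice. The groups were apart, with a log2 fold change of 0.64 (SE 0.14, adjusted p = 0.109), though the second probe set of Spc25 gave -0.12. Spc24, with which Spc25 pairs, was lowest, with 494.2, 466.7 and 505.9 among control mice, against 457.5, 574.4 and 774.8 among garlic-fed mice. Garlic-fed mouse 1 was below all control mice, and the log2 fold change was 0.27 (SE 0.18, adjusted p = 0.651).

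Ndc80 and Nuf2 had log2 fold changes of 0.43 and 0.28, both with overlapping groups. The difference between subunits of the complex was not tested. Cenpa, the histone H3 variant of centromeres, had 0.38. Cenpe, a kinesin that moves chromosomes to the spindle equator, had 0.58. Cenpf, an outer kinetochore protein, had 0.62, and its 3 probe sets ranged from 0.57 to 1.30.

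Kinesins are motor proteins that move along or dismantle microtubules. The 5 kinesin genes had a median log2 fold change of 0.38, but the groups did not overlap in 1 of them, Kif23. Kif11, which pushes the spindle poles apart, had 423.1, 529.5 and 585.1 among control mice, against 619.5, 582.4 and 988.2 among garlic-fed mice. Garlic-fed mouse 2 was just below control mouse 3, and the log2 fold change was 0.48 (SE 0.21, adjusted p = 0.436). Kif2c, which shortens microtubules at kinetochores, had 611.1, 542.9 and 604.4 among control mice, against 575.6, 599.6 and 752.6 among garlic-fed mice. Only garlic-fed mouse 3 was above the control mice, and the log2 fold change was 0.12 (SE 0.14, adjusted p = 0.811). Log2 fold changes were 0.48 for Kif20a and 0.34 for Kif23, which act on the central spindle in cytokinesis, and 0.38 for Kif4, a kinesin of chromosome arms. For Kif23 the other tested probe set gave 0.10.

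The spindle and centrosome genes Tpx2, Hmmr and Cep76 had a median log2 fold change of 0.58, and in all 3 the groups did not overlap. Cep76 encodes a centriole protein that limits centriole duplication. It had 408.4, 497 and 619 among control mice, against 738.9, 1045.1 and 1171.7 among garlic-fed mice. The groups were apart, and the log2 fold change of 0.95, a fold of 1.93, was the highest of the 45 genes (SE 0.20, adjusted p = 0.0976). A second probe set of Cep76 gave 0.47. When 1 mouse was left out, the adjusted p of Cep76 was 0.0448 without garlic-fed mouse 1 and 0.096 to 0.38 without any 1 of the others. Hmmr, a microtubule-binding protein of the spindle, had 709.2, 788.8 and 806.4 among control mice, against 943.8, 982 and 1356.6 among garlic-fed mice. All garlic-fed mice were above all control mice, with a log2 fold change of 0.49 (SE 0.15, adjusted p = 0.244), and the 5 probe sets of Hmmr ranged from 0.06 to 0.66. Tpx2, which activates Aurora A on the spindle, had a log2 fold change of 0.58, and its 4 probe sets ranged from 0.07 to 0.58. With averaged probe sets the median of these 3 genes was 0.34.

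Cytokinesis divides the cell after the chromosomes have parted, and its 5 genes held the widest range of values. Anln encodes anillin, which organizes the contractile ring. It had 578.1, 756 and 760 among control mice, against 898.6, 1058.4 and 1487.7 among garlic-fed mice. The groups did not overlap, with a log2 fold change of 0.70 (SE 0.19, adjusted p = 0.194). Cep55, needed at the midbody for the final cut between daughter cells, ran the other way, with 815.2, 650.7 and 770.3 among control mice, against 411.6, 580.2 and 634.3 among garlic-fed mice. All garlic-fed signals were below all control signals, and the log2 fold change was -0.48 (SE 0.17, adjusted p = 0.344). A second probe set of Cep55 gave -0.67. Even for Cep55 garlic-fed mouse 3 was the highest of the garlic-fed mice. Prc1, which bundles the microtubules of the central spindle, had a log2 fold change of 0.57 with groups apart, and its other probe set gave 0.29. Racgap1, the partner of Kif23, had 0.17, and Ect2, which activates RhoA at the division plane, had 0.25, both with overlapping groups. The median of the cytokinesis genes was 0.25, and it was -0.02 without garlic-fed mouse 3.

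**Figure D4:**
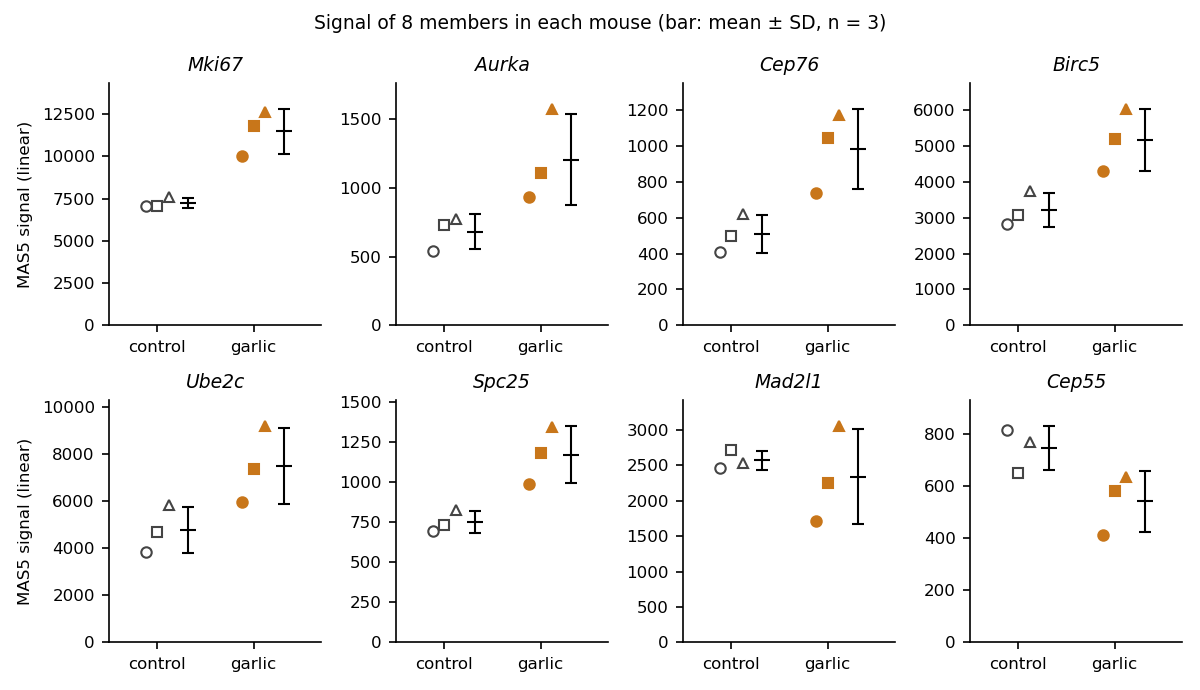
MAS5 signal on a linear scale from 0 in each of the 6 mice for 8 of the genes, with open symbols for control mice, filled symbols for garlic-fed mice (circle, square and triangle for mice 1, 2 and 3) and bars for the mean ± SD (n = 3). The groups are apart in Mki67, Aurka, Cep76, Birc5, Ube2c and Spc25, overlap in Mad2l1, and in Cep55 all garlic-fed mice are below all control mice.

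Promoter type was set beside these differences as a description. The 25 genes with both elements had a median log2 fold change of 0.44 and ran from 0.09 (Cdc20) to 0.80 (Aurka). The 5 genes with the cell cycle homology region alone, Anln, Cep55, Kif2c, Ncapg2 and Ndc80, had a median of 0.21. The 3 genes with the CCAAT box alone, Bub1, Cenpe and Nek2, had 0.33. The 5 genes with neither string in the window, Birc5, Mad2l1, Ncaph, Nuf2 and Pttg1, had 0.24. The ranges overlapped, and Birc5, with neither string, was among the genes with the highest values.

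A further list of 88 mitosis genes, picked by function, put the 45 beside the rest of the same machinery. Of these 85 had a probe set and 83 were bright enough to be tested. Their median log2 fold change was 0.18 and 65 of 83 (78.3%) were positive, against 44.2% of all genes. At an unadjusted p under 0.05 the list held 22 higher genes (background 6.89% of all genes) and 1 lower gene (background 6.24%), and the same backgrounds apply to the lists that follow. Fbxo5, which encodes Emi1, an inhibitor of the anaphase-promoting complex, rose by 0.81 on the log2 scale (SE 0.13, adjusted p = 0.0411, limma), the 1 gene of the list past the adjusted threshold. It had 1057.3, 1344.5 and 1263.4 among control mice, against 1878.5, 2189.5 and 2346.4 among garlic-fed mice, and the groups did not overlap. This call was lost without any 1 mouse other than garlic-fed mouse 1, with an adjusted p of 0.180, 0.126 and 0.0865 without control mouse 1, 2 or 3 and of 0.106 and 0.0562 without garlic-fed mouse 2 or 3. It was also lost with no filter, no trend of variance, the test of the methods on either scale and both pancreatic settings, with an adjusted p of 0.273 to 0.409. Next were Spag5, a spindle protein, with 0.74, and Kntc1, a kinetochore protein of the checkpoint, with 0.69. The lowest were Pmf1 and Cenpc1, of the kinetochore, with -0.29 each, and Troap with -0.26. The cell cycle homology region was found in 40.8% of 71 of these genes that had a promoter window, and both elements in 28.2%.

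Genes of DNA replication, the phase before mitosis, had a median log2 fold change of 0.30. Of 23 tested, 20 were positive, 11 had an unadjusted p under 0.05 on the higher side and 0 were past the adjusted threshold. In mice 1, 2 and 3 of the garlic-fed group their median log2 signal relative to the control mean was 0.05, 0.35 and 0.48. Of 19 replication genes with a window, 15.8% held the cell cycle homology region and 68.4% the CCAAT box.

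Markers of the dividing cell types of the spleen moved beside the mitosis genes in different ways. All 15 erythroid precursor genes tested had positive log2 fold changes, with a median of 0.99. Of these, 14 had an unadjusted p under 0.05, and 4 rose at the adjusted threshold, namely Tfrc, the transferrin receptor (1.01), Kel (1.40), Ank1 (1.37) and Ermap (1.27), which encode red cell membrane proteins. These 4 calls were all lost without control mouse 1 (adjusted p = 0.0661 to 0.128) or 2 (0.0629 to 0.112), with no filter, no trend of variance, the test of the methods on either scale and the pancreatic covariate (0.217 to 0.449). Without the array of most pancreatic signal in each group only Ank1 passed, and with averaged probe sets Ank1 and Tfrc did not pass. Relative to the control mean, garlic-fed mice 1, 2 and 3 had median log2 signals of 0.73, 0.84 and 1.39 over these genes, and control mice 1, 2 and 3 had -0.29, 0.07 and 0.24. The order of the garlic-fed mice was thus that of the mitosis genes. The part of erythroid cells in the values of the mitosis genes was not tested.

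The 5 granulocyte precursor genes had a median log2 fold change of 0.92, with 3 of 5 (Mpo, Elane and Prtn3) higher at an unadjusted p under 0.05 and medians of 0.74, 0.98 and 1.00 in garlic-fed mice 1, 2 and 3. The 5 germinal center B-cell genes tested of 7 had a median of -0.47, with 0 positive and 3 lower at an unadjusted p under 0.05. These were Rgs13 (-1.14), Mybl1 (-0.76) and S1pr2 (-0.47). Their median log2 signal relative to the control mean was -0.84, -0.50 and -0.07 in garlic-fed mice 1, 2 and 3, so that mouse 3 was again the highest of its group. The part of these cell types in the values of the mitosis genes was not tested.

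**Figure D5:**
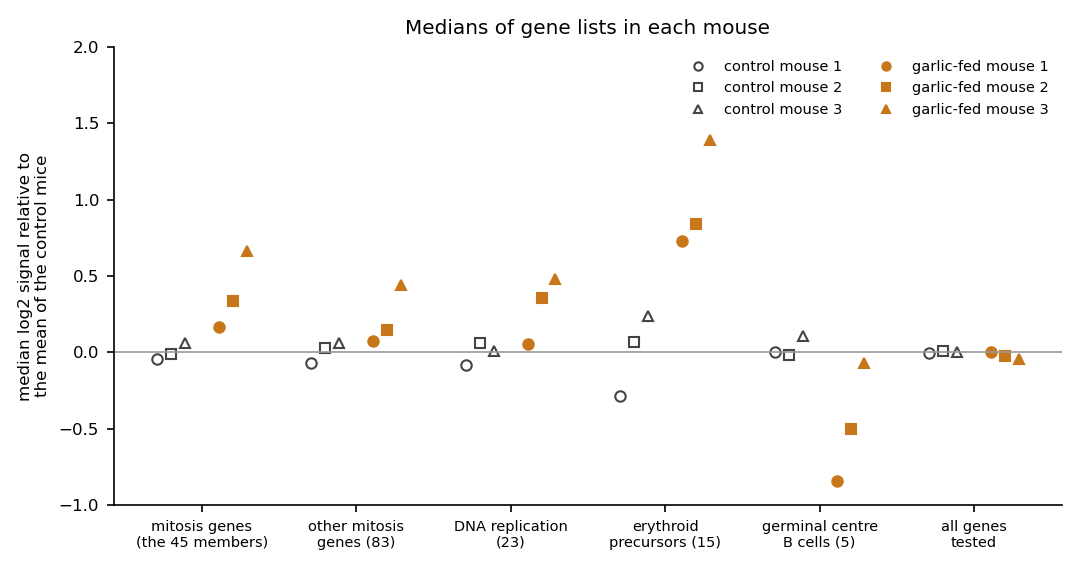
Median log2 signal of each gene list in each of the 6 mice, relative to the mean of the control mice. The number of genes tested is under each list except that of all genes. The garlic-fed medians of the 45 mitosis genes (0.16, 0.34 and 0.67) and of the erythroid precursor genes (0.73, 0.84 and 1.39) lie above all control medians, and those of germinal center B cells lie below them.

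Markers of spleen cells that mostly do not divide had medians smaller in size than those of the precursor and germinal center genes. The median log2 fold change was -0.16 for B cells, -0.19 for T cells, -0.22 for plasma cells, 0.11 for red pulp macrophages and -0.02 for megakaryocytes. Positive values were found in 1 of 6, 0 of 5, 0 of 6, 7 of 7 and 2 of 5 genes of these lists in turn, against 44.2% of all genes. At an unadjusted p under 0.05, 2 B-cell and 2 plasma cell genes were lower and 2 macrophage genes higher. T cells and megakaryocytes had 0. Plasma cell medians in garlic-fed mice 1, 2 and 3 were -0.41, -0.18 and -0.08 relative to the control mean, the order of the mitosis genes. They were -0.03, -0.23 and -0.25 for B cells and -0.20, -0.08 and -0.21 for T cells. Macrophages had 0.22, -0.01 and 0.22, and megakaryocytes 0.24, 0.01 and -0.26. The 9 pancreatic genes had a median of -4.52, with all 9 lower at an unadjusted p under 0.05, 0 past the adjusted threshold and overlapping groups. The 4 fat tissue genes had 0.81, also with overlapping groups. Relative to the control mean, their median log2 signals were 1.52, 1.68 and -0.55 in garlic-fed mice 1, 2 and 3. In control mice 1, 2 and 3 they were -0.36, 0.34 and 0.04. With pancreatic signal as a covariate the mitosis genes had a median log2 fold change of 0.32, and 12 of the 45 were higher at an unadjusted p under 0.05. Without the array of most pancreatic signal in each group these values were 0.38 and 15. The share of all genes at that p was not counted under either setting.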

How the data were processed

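Spleen RNA of 3 control and 3 garlic-fed mice was measured on Affymetrix mouse arrays, 1 array for each mouse, and whether littermates or cages were shared is not given in the sources used here. The deposited values are intensity values, MAS5 signals that the authors computed per probe set on a linear scale. The trimmed mean of each array (2% left out at each end) was 500, as read from the values. The MAS5 version and the scaling target are not given in the sources used here.

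Of 45101 probe sets, 64 controls were left out. The array annotation gave 34945 of the remaining 45037 a single gene, 932 several and 9160 none. Signals were floored at the 20th percentile (23.5) and log2 was taken. The 27022 probe sets with mean log2 above 6.08, the 40th percentile, were tested as garlic minus control with limma 3.58.1 in R 4.3.3 (lmFit, eBayes with a trend of variance), and p-values were adjusted over all of them by Benjamini-Hochberg. The procedure was tested on simulated data. Counts over all genes use 1 probe set per gene. Promoter letters were searched with Python 3.11.15 and figures drawn with matplotlib 3.10.9.

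The 45 genes and the lists (other mitosis genes, DNA replication, erythroid precursors, germinal center B cells, B cells, T cells, red pulp macrophages, plasma cells, granulocyte precursors, megakaryocytes, pancreas and fat tissue) were chosen with earlier results of these data known. Full values are given for Mki67, Top2a, Cdk1, Aurka and Cep76, for genes past the adjusted threshold, and for the highest and lowest log2 fold change of each function group. Of the other mitosis genes the 3 highest and 3 lowest are named, and names outside these rules were picked after their values were seen.

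Alternatives changed 1 setting at a time. They covered scaling (quantile or median centring), the floor (none, or the 40th percentile), the filter (none, or the 60th percentile), the variance without a trend, the one-way ANOVA of the methods on linear and on log2 signals, a block for replicate number, each mouse left out, averaged probe sets of each gene, a covariate of pancreatic signal, and each group without its most pancreatic array.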

Additional observations from a re-analysis of the deposited data

How the results depend on the processing

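The direction of the 45 mitosis genes as a group held under all 19 alternatives, with a median log2 fold change of 0.24 to 0.50 and 39 to 44 of them positive. The count past the adjusted threshold did not hold. It was 1 as reported, and 0 with no filter, with no trend of variance, with the ANOVA of the methods on linear or log2 signals, with pancreatic signal as a covariate and without the array of most pancreatic signal in each group. It was 0 to 2 when 1 mouse was left out, being 0 without any of the 3 control mice or garlic-fed mouse 2 and 2 (Mki67 and Cep76) without garlic-fed mouse 1. The cause was not tested. Genes higher at an unadjusted p under 0.05 numbered 25 as reported, 16 with that ANOVA on log2 signals and 12 on linear signals, 12 with the pancreatic covariate and 15 without the most pancreatic arrays. The share of all genes at an unadjusted p was counted for the main fit alone, so counts under the alternatives have no background beside them. The 1 lower gene, Cep55, was not past that threshold, giving 0, with median centring, no filter, either ANOVA, averaged probe sets or either pancreatic setting, and the count was 0 to 2 when 1 mouse was left out. By the study's fold and an unadjusted p under 0.05, 1 gene was higher as reported, 2 with median centring, 0 with averaged probe sets or without the most pancreatic arrays, and 0 to 3 when 1 mouse was left out.

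With the replicate number as a block, 8 of the 45 genes passed the adjusted threshold, while calls over all 27022 probe sets went from 61 higher and 3 lower to 270 higher and 25 lower. Mice of the same number deviated from their group means with correlations of 0.000642, -0.176 and 0.0781. For control mice 1, 2 and 3 the highest correlation with a garlic-fed mouse of another number was 0.109, 0.159 and 0.0581. The labels tie the numbers to no litter, cage or day, and whether mice of a number shared one is not known.

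With averaged probe sets the median log2 fold change was 0.0124 for the spindle checkpoint and 0.34 for the spindle and centrosome genes. Without the most pancreatic arrays it was 0.23 for the anaphase genes. The median of the kinetochore genes was 0.27 to 0.66 when 1 mouse was left out, and that of the cytokinesis genes -0.02 to 0.45. Of 855 combinations of gene and alternative, 8 had a changed sign. When 1 mouse was left out, the log2 fold change was -0.39 to 0.0263 for Mad2l1, -0.0222 to 0.20 for Ttk, -0.0170 to 0.23 for Cdc20, -0.0249 to 0.31 for Racgap1 and -0.0309 to 0.45 for Ect2. With averaged probe sets Ttk had -0.0224, and with the pancreatic covariate Ttk had -0.0468 and Ect2 -0.0835. The lowest signal of the 45 genes was 198.9, but no measured background or detection call was used here to set beside it.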
